A study of Anopheles gambiae with 6 samples.

Results

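The transcripts described here are those that gave some of the strongest signals of the array in the mosquito embryo and in its serosa alike. They were chosen by their measured values: a probe set was kept if its ID marks it as Anopheles, its log2 value lay above 11 on every array, and the means of the groups differed by less than 0.5. Of 16884 Anopheles probe sets, 139 (0.823%) met these limits. A probe set is a group of short array probes designed for 1 transcript or a few. The study compared dissected embryos with serosa of Anopheles gambiae, the malaria mosquito, Kisumu strain, at 10.5 h of development, with 3 biological replicates per tissue and 1 Affymetrix array per replicate. All eggs were formaldehyde-fixed, embryos were dissected out by hand, and the serosal RNA came from the eggshells that stayed behind. The design text once calls the embryo group whole embryos, and an embryo still enclosed by its serosa would carry serosal RNA into that group. The sample labels, which say dissected, were followed. The labels name no mutation, and no treatment other than the fixation that both groups share. All values are log2 expression values of the robust multi-array average (RMA), a method that brings the arrays to a common distribution of probe values, so they show relative and not total amounts of RNA.

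The serosa is the extraembryonic epithelium that surrounds the insect embryo inside the eggshell, and that of mosquitoes makes a cuticle of its own. In animal cells generally the most abundant messenger RNAs include many for cell maintenance, such as ribosomal proteins, translation factors, cytoskeletal proteins and enzymes of energy metabolism, and such transcripts are shared by cells of very different function. Which of these the 139 probe sets measure is not known here, because the IDs are not paired with genes: of the 139 IDs, 0 matched a RefSeq table of 15165 genes. Embryo and serosa markers could therefore not be looked up, and the tissue labels are unchecked. What an ID does give is a chromosome arm, a number and a part (2R, 15 and 0 in Ag.2R.15.0), a class (CDS for coding sequence, UTR for untranslated region, or neither) and a suffix. By Affymetrix's convention a plain suffix marks probes meant for 1 transcript, the letter a marks transcripts of 1 gene, the letter s marks probes shared by several transcripts, and the letter x marks probes that may cross-hybridize.

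These few probe sets carried a large part of the signal. After conversion to a linear scale they held 34.4, 35.6 and 33.5% of the summed Anopheles signal on embryo arrays 1, 2 and 3, and 33.4, 32.9 and 31.2% on serosa arrays 1, 2 and 3. The embryo arrays averaged 34.5 ± 1.02% and the serosa arrays 32.5 ± 1.13% (SD, n = 3 per tissue), and the groups did not overlap. Brightness also depends on the probes, so these are shares of signal and not of RNA molecules, and since the members were chosen by level the shares carry no test. In bulk RNA of this kind a change in the number of cells of a type cannot be told apart from a change in RNA per cell. Mean levels over the 6 arrays ran from 11.3 to 14.8 with a median of 12.9. They lay between 11 and 12 in 23 probe sets, between 12 and 13 in 53, between 13 and 14 in 55, and above 14 in 8.

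The brightest was Ag.2L.2855.0_s_at, which measured 14.69, 14.84 and 14.72 on the embryo arrays and 14.90, 15.21 and 14.28 on the serosa arrays. Its group means of 14.75 ± 0.08 and 14.80 ± 0.47 (SD, n = 3 per tissue) differed by 0.05 (SE 0.23), and the serosa values spanned the whole embryo range. Next came Ag.UNKN.1841.0_CDS_s_at, whose arm is not given in its ID. It measured 14.40, 14.50 and 14.20 in embryo and 14.46, 14.56 and 13.89 in serosa, a difference of -0.07 (SE 0.19). In both probe sets serosa replicate 2 was the highest array and serosa replicate 3 the lowest. The array's own control for the 3' end of Anopheles actin, a cytoskeletal protein, met the same limits of level and difference but is no member, as its ID is that of a control. Its values were 13.46, 13.43 and 13.53 for embryo and 13.92, 13.96 and 13.36 for serosa.

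The difference between tissues was bounded by the choice of members and is given as a description. The serosa mean was lower in 114 probe sets and higher in 25, and the median log2 difference was -0.17, against -0.40 for the 3737 other bright Anopheles probe sets and 0.01 for all 16884. This direction depended on the scaling: with the medians of bright probe sets equalised 21 were lower and 118 higher, with a median of 0.16, with quantile-normalized values 112 were lower, and with the hybridization controls equalised all 139 were. Bright means here an average over the 6 arrays above 6.30, the mean 95th percentile of the 290 probe sets with IDs of human arrays. Differences ran from -0.50 to 0.48, and 92 of the 139 (66.2%) were smaller than 0.25. In limma, fitted to all 16884 probe sets, 0 of the 139 passed a Benjamini-Hochberg adjusted p of 0.05, where 12.4% of all probe sets passed. At an unadjusted p under 0.05 there were 10 members (7.19%), against 24.8% of all probe sets. With the replicate number as a block, 2 passed, both lower in serosa, where 11.7% of all probe sets passed as lower (16.1% in either direction), and in a test with unequal variances per probe set 0 passed, among the members as among all probe sets. The rule used this contrast, so no meaning attaches to these low counts. Every serosa array lay below every embryo array in 15 members (10.8%, against 17.1% of all probe sets), and the opposite order occurred in 0 members, against 13.2%. The rule limits these 2 counts as well, and they hold for the deposited scaling, on which the direction depended.

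The members at the edges of the range varied among replicates as much as between tissues. The largest positive difference was that of Ag.2R.376.2_a_at, with 12.39, 12.20 and 12.25 in embryo and 12.92, 13.16 and 12.20 in serosa. Its difference of 0.48 (SE 0.24, limma adjusted p = 0.285) rested on serosa replicates 1 and 2, since replicate 3 was the lowest of the 6 arrays, just below embryo replicate 2. Without serosa replicate 3 the difference was 0.76 (SE 0.13, limma adjusted p = 0.0180). Ag.X.15.0_UTR_at measured 11.46, 11.41 and 11.49 in embryo and 11.77, 12.49 and 11.29 in serosa, a difference of 0.39 (SE 0.28, limma adjusted p = 0.474). Here too serosa replicate 3 was the lowest of the 6 arrays, and the serosa values enclosed the narrow embryo range.

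At the negative edge, Ag.X.83.0_CDS_a_at measured 11.58, 11.79 and 12.44 in embryo and 11.26, 11.15 and 11.89 in serosa, a difference of -0.50 (SE 0.28, limma adjusted p = 0.340). On the arrays of both tissues replicate 3 was the highest, and within each same-numbered pair the serosa array was the lower. With the replicate number as a block the SE was 0.11 and the limma adjusted p was 0.0396. The other member that passed with the block was Ag.2R.4.0_CDS_s_at, at -0.41 (SE 0.10, limma adjusted p = 0.0468). Ag.3L.2212.0_s_at measured 14.47, 14.39 and 14.17 in embryo and 14.30, 13.47 and 13.78 in serosa, a difference of -0.49 (SE 0.21, limma adjusted p = 0.215, and 0.122 with the block). Its groups overlapped through serosa replicate 1.

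Just outside the limit on the difference lay Ag.2R.285.0_UTR_at at -0.51 and Ag.UNKN.2427.0_s_at at -0.54, and just inside it the 2 negative members named above. At the limit on the level, the lowest values of members were 11.0003 in Ag.2L.208.0_UTR_at and 11.03 in Ag.2R.2339.0_CDS_a_at. The nearest probe sets kept out by level alone had lowest values of 10.97 (Ag.2R.292.0_UTR_a_at) and 10.90 (Ag.3R.156.6_s_at). Of the 173 probe sets above 11 on all arrays, 139 (80.3%) met the limit on the difference. The share was lower among less bright probe sets, 41.0% of 156 whose lowest value lay between 10 and 11, 36.7% of 278 between 9 and 10, and 38.1% of 491 between 8 and 9. With the hybridization controls equalised the order turned, with 11.6% of the 173 and 18.6%, 20.5% and 17.7% in these dimmer classes. All these classes were set by the lowest array value, which a larger difference between tissues itself lowers. The shares therefore cannot show whether the difference depends on brightness, and they were not tested. Among the 34 that missed the limit, 29 were lower in serosa and 5 higher, with extremes of -1.42 and 0.95.

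A single array, serosa replicate 3, was the low one for most members. The median member level was 12.85, 13.11 and 13.07 on embryo arrays 1, 2 and 3, and 12.90, 13.10 and 12.61 on serosa arrays 1, 2 and 3. Serosa replicate 3 was the lowest of the 6 arrays in 113 of the 139 (81.3%), and the lowest serosa array in 119 (85.6%). Among the other bright probe sets the corresponding shares were 18.4% and 35.8%. The lowest array of a further 8 members each was embryo replicate 1, serosa replicate 1 and serosa replicate 2, and that of 2 was embryo replicate 3. Within same-numbered pairs, serosa replicate 1 was below embryo replicate 1 in 69 members (median difference 0.01) and serosa replicate 2 below embryo replicate 2 in 73 (-0.02), but serosa replicate 3 was below embryo replicate 3 in 136 (-0.43). For other bright probe sets the medians of these 3 pairs were -0.28, -0.36 and -0.56.

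The median difference of the members was -0.04 without serosa replicate 3, -0.27 without serosa replicate 2 and -0.11 without embryo replicate 2. The hybridization controls, 18 probe sets for transcripts added to every sample, were also lowest among the serosa arrays on replicate 3, but there they lay above embryo replicate 3 and close to embryo replicate 2: their mean was 9.64, 9.57 and 9.40 in embryo and 10.02, 10.82 and 9.56 in serosa, highest on serosa replicate 2. The maximum of each array was 14.7, 14.8 and 14.7 for embryo and 14.9, 15.2 and 14.3 for serosa. The order of arrays depended on the scaling. When the Anopheles values by themselves were quantile-normalized, serosa replicate 3 was the lowest of the 6 arrays in 15 members, with the medians of the bright probe sets equalised in 34, and with the hybridization controls equalised in 2. The pairs then had medians of -0.11, -0.22 and -0.08 under quantile normalization, so the pair of replicate 3 no longer stood apart. What part the scaling has in the low values of serosa replicate 3 was not tested.

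The spread between replicates followed the same array. The median SD of the members was 0.16 between embryo arrays and 0.31 between serosa arrays, and it was larger in serosa for 111 of the 139 (79.9%). Other bright probe sets had median SDs of 0.23 and 0.31, with the serosa SD larger in 61.6%. The 34 probe sets above 11 on all arrays that missed the limit on the difference had median SDs of 0.11 and 0.23. Their serosa SD was larger in 26 (76.5%), so the wider serosa spread was not particular to the members. Without serosa replicate 3 the members' serosa SD was 0.16. This is an SD over 2 arrays, and with 1 embryo array left out the embryo SD was 0.12 to 0.15. With quantile-normalized values the median SD was 0.16 in serosa and 0.13 in embryo. The range over all 6 arrays, whatever their group, ran from 0.32 to 1.37 with a median of 0.75, and was under 1 in 123 members.

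The steadiest member was Ag.UNKN.2433.0_s_at, with 13.01, 12.99 and 13.17 in embryo and 13.21, 13.27 and 12.95 in serosa. Ag.2R.15.0_CDS_x_at followed with 13.39, 13.27 and 13.60 in embryo and 13.35, 13.41 and 13.27 in serosa. In this probe set the arrays of the tissues interleaved, and the difference was -0.08 (SE 0.12). The least steady was Ag.3L.2136.0_at, with 12.53, 12.65 and 12.32 in embryo and 12.64, 13.13 and 11.76 in serosa. Ag.3R.2.2_UTR_s_at was close to it, with 13.20, 13.60 and 13.11 in embryo and 13.38, 14.18 and 12.84 in serosa. Their spread lay in the serosa arrays, where both were highest on replicate 2 and lowest on replicate 3, while the group means differed by 0.01 and 0.17.

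Members that were high relative to the others on an embryo array tended to be so on the serosa array of the same number, a measure that the rule did not use except through the lower limit on the level. Across the 139 probe sets, the deviation of an embryo array from the embryo mean correlated with that of the serosa array of the same number with r of 0.58 for replicate 1, 0.43 for replicate 2 and 0.63 for replicate 3. For other bright probe sets the values were 0.47, 0.40 and 0.29. These correlations leave out shifts common to all members, such as the median deviation from the mean over the 6 arrays on replicate 3, which was 0.07 in embryo and -0.35 in serosa. With 1 member per arm and number (n = 111) they were 0.59, 0.38 and 0.64. Probe sets of 1 array share a hybridization and are not independent replicates, and what same-numbered samples share is not given in the labels. Replicate 2 was above replicate 1 in 112 of the 139 in embryo, by a median of 0.18, and in 112 in serosa, also by 0.18. It was above in both tissues in 96 members and in neither in 11. Unlike the correlations, these counts include shifts common to all members, and no such counts for other probe sets stand beside them.

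The correlations were higher among the coding members than among the others. Among the 70 coding members they were 0.64, 0.62 and 0.72, against 0.32, 0.49 and 0.69 among the 40 UTR members and 0.47, 0.42 and 0.55 among the 29 of neither class. Of the 40 UTR members, 18 came from only 2 combinations of arm and number and had similar profiles. Whether the correlations differ between classes was not tested. An example is Ag.2R.269.0_CDS_at, chosen after its values were seen, which measured 11.42, 12.34 and 12.23 in embryo and 11.24, 11.72 and 11.69 in serosa. In both tissues replicate 1 was the lowest and replicate 2 the highest. The median difference between tissues was -0.22 in coding members, -0.15 in UTR members and -0.05 in those of neither class, and the serosa mean was lower in 65 of 70, 32 of 40 and 17 of 29. Whether these classes differ was not tested, since the rule bounds the difference.

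The members differed from other probe sets in the classes and suffixes of their IDs. Of the 139, 70 (50.4%) were coding, 40 (28.8%) UTR and 29 (20.9%) neither, whereas all Anopheles probe sets were 83.3% coding, 4.68% UTR and 12.05% neither. Of the 156 probe sets with a lowest value between 10 and 11, 35.9% were coding, 26.9% UTR and 37.2% neither. Of the 34 above 11 on all arrays that missed the limit on the difference, 20.6% were coding, 47.1% UTR and 32.4% neither. A high UTR share was thus not particular to the members. Probes shared by several transcripts were frequent, with the suffix s in 44 members (31.7%), against 8.14% of all and 14.7% of those 156. The suffix a stood in 58 members (41.7%, against 19.7% of all, 33.3% of the 156 and 32.4% of the 34). The plain suffix stood in 35 (25.2%, against 72.1%, 51.3% and 52.9% in the same order) and x in 2. Signal of a probe set with the suffix s may sum over several transcripts. By arm, 55 members were on 2R, 24 on 2L, 22 on 3L, 21 on 3R and 9 on X, and 8 carried no arm. The share on 2R was 39.6%, against 26.3% of all Anopheles probe sets, but 30.6% with 1 member per arm and number.

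The 139 probe sets came from 111 combinations of arm and number, 98 with 1 member and 13 with more. The latter held 41 members, and 18 of these belonged to only 2 combinations, 2R.6 with 10 members of 12 probe sets on the array and 2R.19 with 8 of 9. They are described because of their size, seen after the values were known. All 18 were UTR probe sets with the suffix s. Over the 10 of 2R.6 the median level was 12.85, 13.11 and 13.18 on embryo arrays 1, 2 and 3 and 12.88, 13.07 and 12.68 on serosa arrays 1, 2 and 3. Over the 8 of 2R.19 it was 12.88, 13.11 and 13.24 for embryo and 12.90, 13.14 and 12.72 for serosa. The medians of these groups thus differed by less than 0.1 on every array. The highest array was embryo replicate 3 in 14 of the 18 and embryo replicate 2 in 4, and the lowest was serosa replicate 3 in 17. Differences between tissues lay between -0.21 and -0.08 in all 18 (limma adjusted p from 0.457 to 0.845). Pairwise correlations of their 6-array profiles ran from 0.76 to 1.00 over 153 pairs, against a median of 0.60 over all 9591 pairs of members. The suffix marks their probes as shared, the probe sequences were not used here, and the 18 cannot be counted as 18 transcripts. Without them 22 of 121 members (18.2%) were UTR and 26 (21.5%) had the suffix s, the median difference was -0.16, and serosa replicate 3 was lowest in 96.

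Of the smaller combinations, the pair with the brightest members is described. In 2R.15, the combination of several probe sets with the brightest member, Ag.2R.15.1_a_at measured 14.17, 14.17 and 14.25 in embryo and 14.47, 14.55 and 14.01 in serosa. Ag.2R.15.0_CDS_a_at measured 14.13, 14.05 and 14.17 in embryo and 14.36, 14.19 and 13.95 in serosa. Together with the steady Ag.2R.15.0_CDS_x_at they had differences of 0.15, 0.05 and -0.08 (SE 0.15, 0.13 and 0.12). The highest array was serosa replicate 2, serosa replicate 1 and embryo replicate 3 in turn, and the lowest was serosa replicate 3 in each. In 2R.317, Ag.2R.317.1_a_at measured 14.10, 14.25 and 14.28 in embryo and 14.24, 14.31 and 13.90 in serosa, and Ag.2R.317.0_CDS_a_at 13.75, 13.85 and 13.84 in embryo and 13.81, 13.50 and 13.45 in serosa. Their differences of -0.06 and -0.23 (SE 0.14 and 0.12) were within the spread of the serosa arrays or close to it.

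For 27 of the 111 combinations the array also held probe sets that were not members, 32 in all, 31 of them because a value lay at or below 11. The other, Ag.3L.130.0_UTR_a_at, was kept out by its difference alone, -0.76 (SE 0.18, limma adjusted p = 0.0382, and 0.00874 with the block). The 31 were not chosen by their own difference, but they share arm and number with members that were, and may share probes with them. They had a median difference of -0.15, lay between -0.84 and 1.06, and differed by less than 0.5 in 24 (77.4%). Of the 31, 10 were not above the background level of 6.30, where small differences say little. Among the other 21 the median was -0.15 and 16 (76.2%) differed by less than 0.5. In the classes of all Anopheles probe sets with lowest values from 7 to 11 the shares were 36.7 to 41.0%. Those classes were not matched to the 21 in level, and the shares were not tested against each other. In limma 0 of the 31 passed, against 12.4% of all probe sets, with 7 (22.6%) at an unadjusted p under 0.05 and 0 in the unequal-variance test, and with the replicate block 3 did, against 16.1%. The 3 were Ag.3L.2136.1_a_at, which was higher in serosa, and Ag.2R.19.3_UTR_x_at and Ag.3L.117.2_s_at, which were lower. Ag.3L.2136.1_a_at measured 10.35, 10.56 and 9.37 in embryo and 11.28, 11.68 and 10.49 in serosa, a difference of 1.06 (SE 0.40, limma adjusted p = 0.152, and 0.00385 with the block). Within each same-numbered pair its serosa array was the higher, while the member with the same arm and number, Ag.3L.2136.0_at, differed by 0.01. These probe sets thus gave different values for the comparison of tissues, and whether they measure 1 transcript is not known from the IDs.

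In 19 combinations a UTR member could be set beside coding probe sets that missed the level. The coding probe sets measured between 4.01 and 11.3, and the UTR members between 11.6 and 13.8. That all were dimmer follows largely from the choice, since the coding probe sets missed the level that the UTR members met. Levels of different probe sets are also not comparable as amounts. The reverse occurred too: in 3L.121 and 3L.127 the coding probe set was the member, with means of 13.3 and 13.4 over the 6 arrays. Their UTR probe sets missed the level, with embryo means of 5.84 and 8.78 and serosa means of 5.77 and 9.60. In 8 of the 19 at least 1 coding probe set was not above the background level of 6.30, where differences are compressed. Over all 19, the absolute gap between the coding and the UTR difference had a median of 0.18 and ran from 0.01 to 0.53, and the coding difference was under 0.5 in 17 of 19. In the 11 with coding probe sets above background the gap had a median of 0.14 and ran from 0.01 to 0.51, and the coding difference was under 0.5 in 11. Between embryo arrays the coding probe sets varied more in 17 of 19, with a median SD of 0.52 against 0.15, and between serosa arrays in 7 of 19 (0.29 against 0.40). Among the 11 above background the counts were 11 and 4. These SDs set dimmer probe sets against probe sets chosen for a high level, so they cannot tell class from level. The clearest case of a shared replicate pattern, chosen after its values were seen, was Ag.3R.165.0_CDS_a_at. It measured 7.42, 9.11 and 7.999 in embryo and 7.54, 9.21 and 7.79 in serosa, so replicate 2 exceeded replicate 1 by 1.69 and 1.67, while the tissues differed by 0.01. Of the 2 UTR members of this combination, Ag.3R.165.0_UTR_a_at measured 14.01, 14.09 and 13.89 in embryo and 13.84, 13.84 and 13.43 in serosa, without that gap. Averaged over both UTR members, replicate 2 exceeded replicate 1 by 0.27 in embryo and 0.11 in serosa. The gap was thus smaller than in the coding probe set but in the same direction.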

How the data were processed

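RNA of 3 embryo and 3 serosa preparations was hybridized to 1 Affymetrix Plasmodium-Anopheles array each. The log2 expression values were computed by the authors with RMAExpress, per the series' design text; its version is not given in the sources used here. Columns of values not used numbered 0. Precision is limited by the number of arrays. The members and all lists were chosen with earlier results of these data known. Probe sets were named by a fixed rule (highest mean, smallest and largest range, largest differences, nearest to each limit, shared arm and number), with at most 2 IDs per part as no table here names the genes of the IDs. Others were named after their values were seen, among them those that passed the threshold in a fit or were kept out by their difference alone.

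Differences were fitted to all 16884 Anopheles probe sets with limma 3.58.1 in R 4.3.3 (lmFit and eBayes, Benjamini-Hochberg adjustment, threshold 0.05) and tested on simulated data. Deviations of same-numbered arrays correlated with r of 0.32, 0.33 and 0.22 over all Anopheles probe sets, each over 0.1. The numbers were therefore taken as pairs for the block and the same-numbered comparisons, though the labels do not say what they share. The main fit had no block and ignored these pairs. SEs and adjusted p values come from it unless another setting is named. Alternatives were other limits, scalings, a trend, a filter, a block and each array left out; the counts of direction by scaling and the split at background were added after seeing the data. Tables were made in Python 3.11.15.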

Additional observations from a re-analysis of the deposited data

How the results depend on the processing

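Which probe sets count as shared depended on the scaling. With the hybridization controls equalised, 20 probe sets met the limits, 13 of them among the 139. With a difference under 0.25 there were 92. The other limits and scalings, and 1 probe set per arm and number, gave 111 to 168, and leaving out 1 array 129 to 141. The median difference of the members was 0.16 with bright medians equalised and -0.76 with the controls equalised, where the median of all Anopheles probe sets was 0.33 and -0.59. It was -0.27 to -0.04 with 1 array left out. Their median SD was 0.12 to 0.15 in embryo and 0.16 to 0.39 in serosa with 1 array left out. After quantile normalization it was 0.13 in embryo and 0.16 in serosa.

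Serosa replicate 3 was lowest of all arrays in 15, 34 and 2 members under quantile normalization, bright medians and controls, and lowest of the serosa arrays in 25, 119 and 2. Members past the threshold numbered 2 with the replicate block, 4 after quantile normalization, all lower in serosa (Ag.2L.208.0_UTR_at, Ag.2L.4005.0_at, Ag.3R.181.0_CDS_at and Ag.3R.3728.0_at), 2 with bright medians equalised, both higher (Ag.2R.376.2_a_at and Ag.UNKN.2221.0_s_at), and 0 to 2 with 1 array left out. Without serosa replicate 2 these were Ag.2L.4005.0_at and Ag.2R.4674.0_at, both lower, and without serosa replicate 3 Ag.2R.376.2_a_at, higher. Over all Anopheles probe sets 2093 passed as deposited, 2725 with the replicate block, 3283 with bright medians equalised, 0 in the unequal-variance test and 972 to 1977 with 1 array left out, with 990 without embryo replicate 2, 972 without embryo replicate 3 and 1254 without serosa replicate 1. The block changed no other call among the members. The cause of these shifts was not tested beyond what each scaling applies to the arrays.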

Other observations

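Of 5877 probe sets without an Anopheles ID, 10 lay above 11 on all 6 arrays and 8 of these also differed by less than 0.5 between the group means. All 10 carry control IDs, and all 10 were highest on serosa replicate 2, while 1 was lowest on serosa replicate 3. Among the 139 shared abundant Anopheles probe sets, serosa replicate 2 was highest in 48 and embryo replicate 2 in 53. The control for the 3' end of Anopheles actin was the member of the 10 that names a mosquito gene, with an embryo mean of 13.47 ± 0.05 and a serosa mean of 13.75 ± 0.34 (SD, n = 3 per tissue), a difference of 0.27 (limma adjusted p = 0.467 over all probe sets of the array).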
